A study of Homo sapiens with 12 samples.

Results

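The addition of FAC to cells that also received 8HQ was examined by comparing 8HQ/FAC libraries with 8HQ libraries. Genes were taken when 3 or more of the 12 libraries reached 1 FPKM, which kept 10823 of the 20030 genes in the deposited table, or 54.0%. The comparison itself rests on 6 of the 12 libraries, 3 in each group. All groups were HepG2 cells, a human hepatoma line, and the labels give no genotype beyond that line. The 4 groups were DMSO, the vehicle; 8HQ; FAC; and 8HQ/FAC, which received both agents. Each had 3 libraries, and the labels give 10 µM and 6 h. It is not clear from the labels which agent the 10 µM refers to. The abbreviations are not spelled out there; in studies of iron, 8HQ is commonly 8-hydroxyquinoline, a lipophilic metal binder that can move iron over membranes, and FAC is commonly the iron salt ferric ammonium citrate. The DMSO and FAC libraries are used below to set the effect of FAC with 8HQ beside its effect without it. HepG2 is a tumour line, so its levels describe that line and not liver tissue. Nothing in the labels tells if replicate libraries were grown as separate cultures, so a p-value here reflects the spread among samples alone, and that spread may be technical.

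Hepcidin, encoded by HAMP, is the liver hormone that lowers plasma iron by binding ferroportin, the cellular iron exporter encoded by SLC40A1, and causing its degradation. Hepatocytes transcribe HAMP when BMP ligands activate receptors that phosphorylate SMAD proteins, and the same signal drives ID1, SMAD6 and SMAD7. Cellular iron is also sensed by iron regulatory proteins, which stabilise the mRNA of the transferrin receptor TFRC when iron is low, so that TFRC mRNA falls when iron enters the regulatory pool. Iron chelation also stabilises hypoxia-inducible factor (HIF), because its prolyl hydroxylases need iron, and metals such as zinc and copper induce metallothioneins.

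The promoters of 3 genes that the results turn on are shown with the short motif that marks the pathway each belongs to. They come from the RefSeq table of build GRCh38.p14 and run from 250 bases before to 50 bases after the annotated start. Capitals mark each match to the motif named for that promoter, on either strand. The HAMP promoter, chr19:35282278-35282577 on the plus strand, holds GGCGCC, the core of the BMP response element, once. The CA9 promoter, chr9:35673678-35673977 on the plus strand, holds ACGTG, the core of the hypoxia response element, once and on the minus strand. The MT2A promoter, chr16:56608334-56608633 on the plus strand, holds TGCNCNC, the core of the metal response element, 8 times, with N for any base.
HAMP: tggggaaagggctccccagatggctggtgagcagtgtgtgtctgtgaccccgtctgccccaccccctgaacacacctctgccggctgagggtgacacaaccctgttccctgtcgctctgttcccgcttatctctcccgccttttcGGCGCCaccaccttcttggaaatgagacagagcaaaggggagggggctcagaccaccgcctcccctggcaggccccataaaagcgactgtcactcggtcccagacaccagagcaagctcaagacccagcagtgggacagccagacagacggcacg
CA9: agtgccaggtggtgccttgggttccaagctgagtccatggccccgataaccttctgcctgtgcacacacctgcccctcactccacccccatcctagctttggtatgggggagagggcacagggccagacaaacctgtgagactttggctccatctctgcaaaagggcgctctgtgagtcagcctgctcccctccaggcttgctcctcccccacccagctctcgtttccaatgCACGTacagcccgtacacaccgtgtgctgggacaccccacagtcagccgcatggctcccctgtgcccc
MT2A: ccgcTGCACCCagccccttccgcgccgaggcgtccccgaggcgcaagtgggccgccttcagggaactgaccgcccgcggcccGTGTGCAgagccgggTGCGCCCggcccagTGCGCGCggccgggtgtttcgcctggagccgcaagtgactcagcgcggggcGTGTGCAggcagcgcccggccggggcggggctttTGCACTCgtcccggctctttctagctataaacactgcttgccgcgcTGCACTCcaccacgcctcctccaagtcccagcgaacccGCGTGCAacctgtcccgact
These motifs are short and common. TGCNCNC, not capitalised there, also occurs 3 times in the CA9 promoter and 1 time in that of HAMP. Among the 8950 tested genes with a promoter in the table, GGCGCC occurred in 31.5%, ACGTG in 27.4% and TGCNCNC in 63.5%. Among the 188 such genes that were at least 2-fold higher in 8HQ/FAC, the shares were 27.1%, 28.2% and 62.2%, and among the 961 at least 2-fold lower they were 33.6%, 27.9% and 63.4%. The 3 motifs occurred at similar shares in genes that rose, genes that fell and all tested genes.

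The 8HQ and 8HQ/FAC libraries differed in the overall distribution of levels. The FPKM values summed to 338083 ± 2980 (SD, n = 3) in 8HQ and to 423226 ± 3959 in 8HQ/FAC, while the median level on the log2(FPKM + 1) scale was 3.40 and 2.98. The 10 most abundant genes held 8.05% to 8.09% of the sum in 8HQ and 10.6% to 10.7% in 8HQ/FAC. Steps between low values put the depth at about 15900000 to 20400000 reads or fragments in these 6 libraries, with 8HQ/FAC at 0.830 to 0.905 of 8HQ replicate 1. Libraries of the same group correlated at r = 0.997 to 0.998 across tested genes, and libraries of different groups at 0.939 to 0.946, where genes are not independent replicates. All 10 hepatocyte-lineage markers were above 0 in every library, and their summed level was 17199 to 17470 FPKM in 8HQ and 28131 to 28842 FPKM in 8HQ/FAC. Of 21 leukocyte, Kupffer cell and red cell markers, 17 to 19 were above 0 in the 8HQ libraries and 8 to 10 in the 8HQ/FAC libraries. Without 8HQ the split was similar, with 17 to 19 above 0 in DMSO and 7 to 11 in FAC. PTPRC, CD3E, TYROBP, S100A8, HLA-DRA, CD163, MARCO and HBB, 8 of these 21, were above 0 in every 8HQ library and listed at 0 in every 8HQ/FAC library. All 8 were above 0 in every DMSO library. CD3E, TYROBP, S100A8, HLA-DRA, CD163 and HBB were listed at 0 in every FAC library as well. The summed level of all 21 was 1150 to 1204 and 2107 to 2127 FPKM, most of it LYZ, which HepG2 cells express. Of 16 fibroblast, stellate and endothelial markers, 12 to 13 and 7 to 9 were above 0, with sums of 35.9 to 37.3 and 52.2 to 55.3 FPKM. In DMSO and FAC, 11 to 13 and 7 to 10 of them were above 0. Of 12 cholangiocyte and kidney markers, the sums were 990 to 1007 and 849 to 860 FPKM. The part of these marker differences in the results was not tested. Whether any such cells were present in the HepG2 cultures was not tested either. In bulk RNA, fewer cells of a type and less RNA per cell cannot be told apart.

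Of the 10823 genes, 9139 were called at an adjusted p under 0.05, which is 84.4%. 2900 were higher in 8HQ/FAC (26.8%) and 6239 were lower (57.6%). The 3 libraries of each group did not overlap in 9167 genes, or 84.7%. The change was at least 2-fold on the log2(FPKM + 1) scale in 232 genes called higher (2.14%) and 1162 called lower (10.7%). Past 4-fold the balance turned, with 36 genes higher and 13 lower, and past 16-fold there were 6 higher and 1 lower. On this scale a fall cannot exceed the gene's starting log2 value, whereas a rise has no such bound. With a pseudocount of 0.1 FPKM, 321 genes were called at least 2-fold higher and 1919 at least 2-fold lower. The median log2 change of all tested genes was -0.25, so a gene at no change sat 0.25 above the median gene. The direction split depended on the scaling. Higher genes made up 31.7% of the calls as deposited, 49.6% after quantile normalization, 62.3% after centring each library on its median and 15.4% after setting the FPKM sums equal, with all-gene medians of -0.00, 0.17 and -0.51. Of the 232 genes at least 2-fold higher, 225 were called higher under all 4 other scalings (those 3 and removal of a length trend), and of the 1162 at least 2-fold lower, 1155 were called lower under all 4. The 232 include 43 genes that passed the filter on low values only through the 8HQ/FAC libraries, and 189 remain without them.

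**Figure D1:**
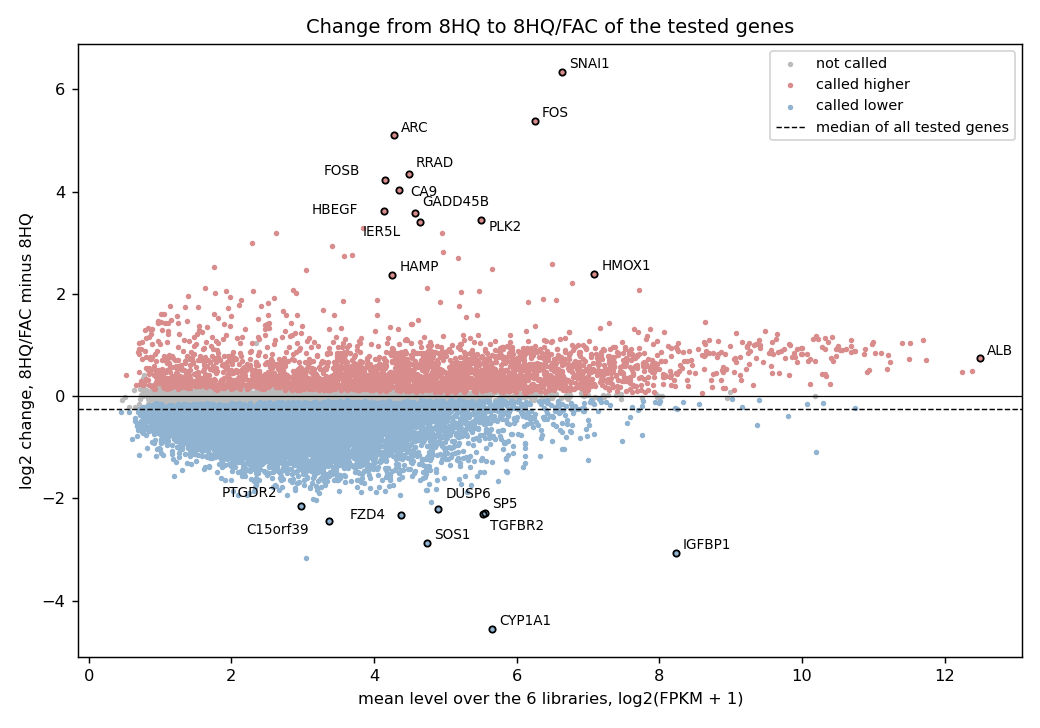
Change from 8HQ to 8HQ/FAC (log2, vertical axis) against the mean level over the 6 libraries (log2(FPKM + 1), horizontal axis), with 1 point per tested gene coloured by its call and the dashed line at the median of -0.25. SNAI1, FOS and ARC stand above 5 on the log2 scale, and CYP1A1 lies lowest at -4.56.

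The change varied with transcript length. In the bin of genes with the shortest annotated transcripts (312 to 2347 bases), the median log2 change was 0.21, with 54.6% called higher and 25.6% lower. In the bin with the longest (5329 to 34526 bases), the median was -0.62, with 8.71% called higher and 82.6% lower. The bins between had medians of -0.18 and -0.37. Across the 10789 genes with a length, Spearman's rho was -0.49 as a description, against -0.11 for FAC without 8HQ, where the bin medians ran from 0.03 to -0.04. With the trend on length removed, higher genes made up 50.6% of the calls and the median change was 0.01. The values named below are those deposited, and where another scaling turned the direction of a named gene's change or a list's median, this is given beside it. Of the tested genes, 125 passed the filter on low values only through the 8HQ/FAC libraries, fewer than 3 of the others reaching 1 FPKM, and 68 only through 8HQ. The filter itself favoured a difference in such genes. Of the 125, 100 were called higher, and of the 68, 47 were called lower and 2 higher. Those named below are pointed out and their p is not given.

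**Figure D2:**
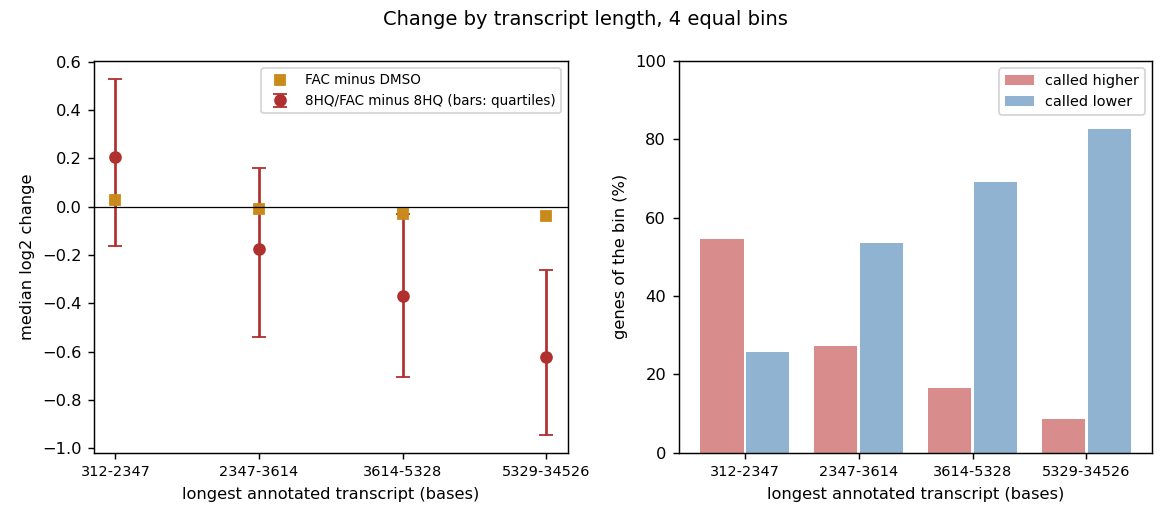
Left, median log2 change by transcript length in 4 equal bins (bases, horizontal axis) for 8HQ/FAC minus 8HQ, with bars at the quartiles, and for FAC minus DMSO. Right, share of each bin called higher or lower in 8HQ/FAC; the median falls from 0.21 in the shortest bin to -0.62 in the longest.

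HAMP rose when FAC was added to 8HQ-treated cells. HAMP stood at 5.4, 5.25 and 4.85 FPKM in the 8HQ libraries and at 29.7, 29 and 34.4 in the 8HQ/FAC libraries. Every 8HQ/FAC library was above every 8HQ library, and the means of 5.17 ± 0.283 and 31.1 ± 2.92 FPKM (SD, n = 3) differed 6.01-fold. The log2 change was 2.38 (SE 0.13, adjusted p = 9.81e-11), or 2.63 above the median gene, and it was 2.80, 2.56, 2.07 and 2.49 after median centring, after quantile normalization, with equal sums and without the length trend. HAMP was 3.95, 3.29 and 2.34 FPKM in DMSO and 1.02, 0.456 and 0.587 in FAC, so FAC without 8HQ was accompanied by a lower HAMP level (log2 change -1.31, adjusted p = 8.94e-07). The libraries of 8HQ/FAC were the highest of the 4 groups and those of FAC the lowest.

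The other targets of BMP signalling did not move with HAMP as a group. ID2, a helix-loop-helix inhibitor of transcription, was 37.3, 39.9 and 35.9 FPKM in 8HQ and 179.5, 189 and 169 in 8HQ/FAC, 4.75-fold higher in the mean (log2 change 2.22, SE 0.047, adjusted p = 8.91e-15). ID1, the helix-loop-helix target most used as a readout of BMP in hepatocytes, was 40.2, 40.8 and 41.3 FPKM in 8HQ and 35.9, 37.5 and 34.4 in 8HQ/FAC. The ID1 ranges did not overlap and the log2 change was -0.18 (SE 0.036, adjusted p = 3.10e-04), but it was 0.24 after median centring. SMAD6 and SMAD7, inhibitory SMADs induced by the pathway they restrain, were not called: SMAD6 went from 1.37 ± 0.103 to 1.53 ± 0.115 FPKM (adjusted p = 0.203) and SMAD7 from 5.55 ± 0.0728 to 6.06 ± 0.467 (adjusted p = 0.0968). Their calls depended on the scaling. SMAD6 was called higher at 0.40, 0.52 and 0.55 after quantile normalization, median centring and length correction, and was -0.093 and not called with equal sums, while SMAD7 was called higher at 0.56, 0.53 and 0.48 and lower at -0.17. TMPRSS6, the protease that cleaves the BMP co-receptor hemojuvelin and restrains HAMP, rose from 1.73, 2.06 and 1.66 to 2.95, 3.11 and 3.26 FPKM (log2 change 0.55, adjusted p = 1.15e-06). BMP6, the main iron-regulated ligand, and HJV, which encodes hemojuvelin, were too low to be tested; BMP6 was listed at no more than 0.270 FPKM and HJV at no more than 0.0772 FPKM in any library.

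The ligand BMP4, the receptors BMPR1A and BMPR2, and SMAD1, SMAD4 and SMAD5 were lower as deposited. Of 18 tested genes of hepcidin and BMP-SMAD signalling, 3 rose (HAMP, ID2 and TMPRSS6) and 12 fell. These shares of 16.7% and 66.7% stood beside 26.8% and 57.6% of all genes, and the median log2 change was -0.35 against -0.25. BMP4, a ligand that liver cells secrete, was 48.5, 49.6 and 50.3 FPKM in 8HQ and 20.5, 18.7 and 21.3 in 8HQ/FAC (log2 change -1.26, SE 0.042, adjusted p = 4.92e-13). The type I receptor BMPR1A fell from 7.68 ± 0.382 to 3.13 ± 0.219 FPKM and the type II receptor BMPR2 by 1.02 on the log2 scale. The receptor-activated SMAD1 and SMAD5 and the common partner SMAD4 had log2 changes of -0.83, -0.79 and -0.89. The median of this list was positive, at 0.07, after median centring, where 8 members were called higher and 7 lower. After quantile normalization 6 were called higher and 8 lower.

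**Figure D3:**
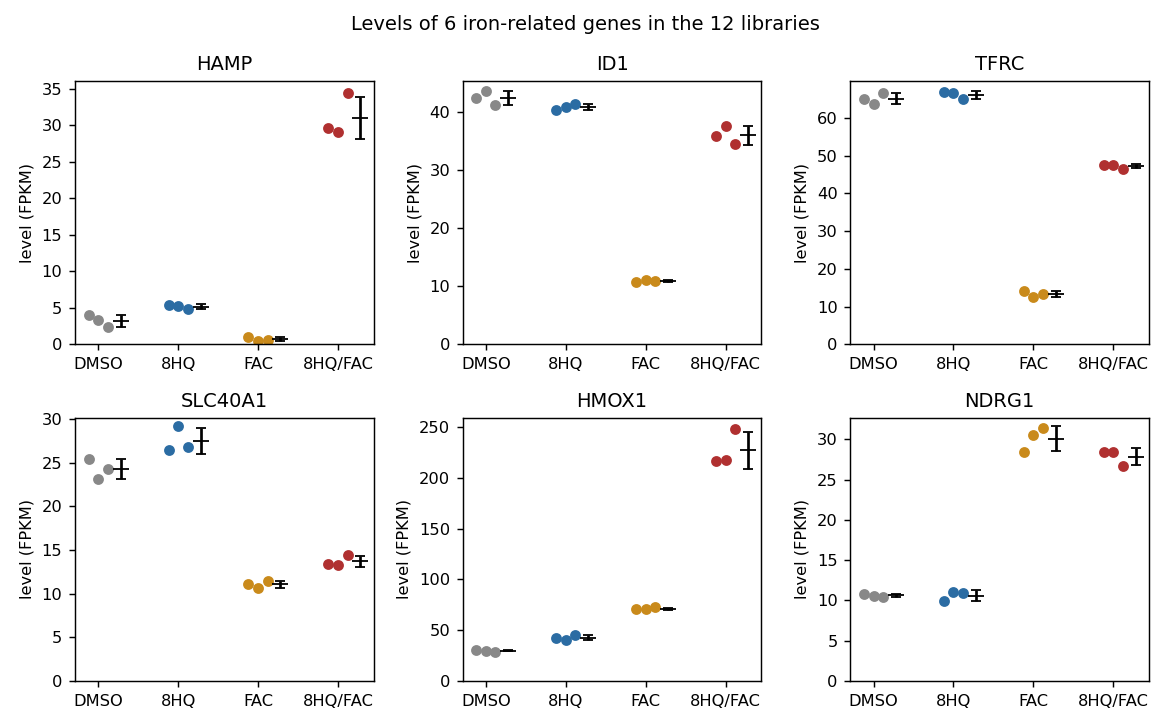
Levels of HAMP, ID1, TFRC, SLC40A1, HMOX1 and NDRG1 (FPKM, vertical axis) in the 3 libraries of each of the 4 groups, with 1 point per library and the mean with SD beside them. HAMP is highest in 8HQ/FAC at a mean of 31.1 FPKM and lowest in FAC at 0.686 FPKM, whereas TFRC in FAC, at 13.4 FPKM, lies below every other group.

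Among genes that handle iron, transferrin and lipocalin 2 were higher and the receptor, the importer and the exporter were lower. Of 24 tested members of iron storage, uptake and export, 6 rose and 11 fell, or 25% and 45.8% beside 26.8% and 57.6% of all genes. The median log2 change of -0.08 was 0.34 after median centring and 0.065 after length correction. TFRC, which imports transferrin-bound iron, was 66.8, 66.6 and 65 FPKM in 8HQ and 47.5, 47.5 and 46.6 in 8HQ/FAC. The groups did not overlap and the log2 change was -0.48 (SE 0.036, adjusted p = 4.72e-09), but it was -0.055 after median centring and -0.031 after length correction, neither of them called. In DMSO and FAC, TFRC was 65, 63.8 and 66.6 and 14.1, 12.6 and 13.4 FPKM. SLC40A1, the iron exporter, was 26.5, 29.2 and 26.8 FPKM in 8HQ and 13.3, 13.3 and 14.4 in 8HQ/FAC, 2.01-fold lower in the mean (log2 change -0.96, SE 0.049, adjusted p = 4.56e-11). SLC11A2, the divalent metal importer DMT1, fell from 12.5 ± 0.576 to 7.72 ± 0.471 FPKM, and IREB2, which encodes iron regulatory protein 2, fell from 13.4, 13.7 and 12.9 to 4.58, 5.0 and 5.29 FPKM (log2 change -1.27, adjusted p = 2.41e-12). IREB2 was 13.2 FPKM in DMSO and 14.2 in FAC.

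TF, which encodes the plasma iron carrier transferrin, rose from 843, 826 and 871 to 1916, 1867 and 1881 FPKM, 2.23-fold in the mean (log2 change 1.16, SE 0.021, adjusted p = 3.48e-15). LCN2, lipocalin 2, which binds iron-loaded siderophores, rose from 15.4, 14.8 and 16.9 to 57.9, 56.8 and 52.3 FPKM (log2 change 1.76, adjusted p = 1.34e-13). TFR2, the transferrin receptor that hepatocytes use to sense plasma iron, was 18.4, 21 and 21.5 FPKM in 8HQ and 25.4, 26.4 and 27 in 8HQ/FAC (log2 change 0.36, adjusted p = 1.12e-04, not called with equal sums). The ferritin subunits are abundant, and their direction depended on the scaling. FTH1, the heavy chain, was 1896, 1922 and 1919 FPKM in 8HQ and 2801, 2714 and 2802 in 8HQ/FAC, with a log2 change of 0.54 as deposited and -0.29 after quantile normalization. FTL, the light chain, was 4383, 4466 and 4453 and 6139, 6267 and 6261 FPKM, with a log2 change of 0.49 as deposited, -0.15 after quantile normalization and -0.0096 after length correction. Ferritin levels are also set by translation, which these data do not measure.

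HMOX1, heme oxygenase 1, which releases iron from heme, rose from 42, 40.3 and 44.9 to 216, 217 and 248 FPKM, 5.36-fold in the mean (log2 change 2.39, SE 0.048, adjusted p = 5.56e-15). The 8HQ/FAC libraries were also above the FAC libraries at 70.6, 70.7 and 72.3 FPKM and the DMSO libraries at 30, 29.7 and 28.9 FPKM. The rest of heme metabolism changed less. Of 18 tested members of heme synthesis and breakdown, 5 rose and 9 fell, or 27.8% and 50% beside 26.8% and 57.6% of all genes, and the median was -0.11, which turned to 0.20 after quantile normalization and 0.31 after median centring. UROD and UROS, enzymes of heme synthesis, and BLVRA and BLVRB, the biliverdin reductases that act after heme oxygenase, were the others called higher, with log2 changes of 0.37, 0.34, 0.32 and 0.34; BLVRA was -0.033 after length correction. With equal sums these 4 were not called, nor was BLVRB after length correction. BACH1, the heme-binding repressor of HMOX1, fell from 9.18, 10.1 and 10.1 to 3.22, 3.7 and 3.76 FPKM (log2 change -1.25, SE 0.056, adjusted p = 1.21e-11). The heme transporters FLVCR1 and SLC46A1 fell from means of 7.7 and 8.56 FPKM to 4.82 and 3.6 FPKM, and FLVCR1 was not called after quantile normalization or length correction.

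All 7 tested metallothioneins were called higher as deposited. MT1M needed the libraries of both 8HQ and 8HQ/FAC to pass the filter, so it belongs to both sets given above. MT2A, whose promoter is shown above, was 129, 160.1 and 132 FPKM in 8HQ and 238, 229 and 229 in 8HQ/FAC (log2 change 0.73, SE 0.061, adjusted p = 1.93e-08), and it was 71.7, 74.6 and 68.9 FPKM in FAC. MT1A, lowly expressed in 8HQ, went from 2.15, 1.34 and 0.989 to 19.1, 18.2 and 15.8 FPKM, 11.9-fold in the mean (log2 change 2.93, adjusted p = 3.68e-12). MT1G, MT1E and MT1X rose from means of 28.3, 38 and 22.6 FPKM to 59.2, 69.2 and 34.5 FPKM. The MT1 genes are near copies of each other, so reads may have been divided among them, and single members are uncertain. With the zinc genes, 7 of 11 members rose and 4 fell (26.8% and 57.6% in all genes). The median was 0.68, and under the other scalings it ran from 0.25 after length correction to 1.11 after median centring. Without MT1M, 6 of 10 rose and 4 fell. The 4 that were lower were MTF1, the metal-sensing transcription factor, and the transporters SLC30A1, SLC30A10 and SLC39A10, with log2 changes of -0.26, -0.35, -0.44 and -0.38. MTF1 and SLC30A10 were 0.13 and 0.011 after quantile normalization. MTF1, SLC30A1 and SLC39A10 were 0.17, 0.069 and 0.046 after median centring and 0.39, 0.13 and 0.10 after length correction. After length correction 8 of the 11 members were called higher, MTF1 and SLC30A1 among them, so not every metallothionein was.

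The largest rises included SNAI1 and the immediate early genes FOS, ARC and FOSB. SNAI1, the transcriptional repressor of E-cadherin, was 1.23, 1.53 and 1.54 FPKM in 8HQ and 194, 211 and 184 in 8HQ/FAC, 137-fold higher in the mean (log2 change 6.34, SE 0.095, adjusted p = 5.22e-16). FOS, a subunit of AP-1, was 2.49, 2.61 and 2.54 FPKM in 8HQ and 148, 154 and 142 in 8HQ/FAC, 58-fold higher (log2 change 5.39, adjusted p = 5.10e-15). ARC, an immediate early gene best known from neurons, was 0.135, 0.0903 and 0.0569 FPKM in 8HQ and 33.5, 41.2 and 35.6 in 8HQ/FAC (log2 change 5.10); it passed the filter only through 8HQ/FAC. These 3 genes were low in all 8HQ libraries and well above them in all 8HQ/FAC libraries.

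FOSB, another AP-1 subunit, went from 0.585, 0.986 and 0.874 to 32.5, 35.1 and 30.7 FPKM (log2 change 4.22) and likewise passed the filter only through 8HQ/FAC. RRAD, a small GTPase of the RGK family, went from 1.34, 0.865 and 1.14 to 38.6, 45.4 and 41.1 FPKM (log2 change 4.34). HBEGF, a ligand of the EGF receptor, went from 1.3, 1.92 and 1.76 to 30.9, 34 and 30.1 FPKM (log2 change 3.62). All 3 were below 2 FPKM in 8HQ. GADD45B, a stress-induced regulator of p38 and JNK signalling, PLK2, a kinase induced by p53 and growth factors, and IER5L, an immediate early response gene, rose to means of 43 ± 2.3, 81.8 ± 4.66 and 44.8 ± 2.57 FPKM from 2.67 ± 0.224, 6.64 ± 0.696 and 3.32 ± 0.188. CA9 was the remaining member of the 10 largest rises and is described with the HIF targets. Leaving out FOSB, the adjusted p of these genes lay between 4.00e-15 and 6.57e-14.

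Of 24 tested immediate early and AP-1 genes, 19 rose and 5 fell, beside 26.8% and 57.6% of all genes. A rise of at least 2-fold was called in 12, beside 2.14% of all genes. Without ARC, FOSB and KLF4, which passed the filter only through 8HQ/FAC, 16 of 21 rose, 9 of them at least 2-fold. The median log2 change was 1.0, and it was 0.69 to 1.43 under the other scalings. ATF3, JUNB and MAFF, further stress-induced transcription factors, had log2 changes of 2.82, 2.03 and 1.85, and EGR1, a zinc finger factor downstream of ERK, had 1.18. CCN2, a matricellular protein, was 147, 148 and 142 FPKM in 8HQ and 155, 173 and 160.1 in 8HQ/FAC, with a log2 change of 0.16 that was -0.25 after quantile normalization and -0.16 with equal sums. The 5 that fell were MYC, SRF, KLF6, JUND and FOSL2. MYC, the growth-promoting transcription factor, fell from 55.7, 56.1 and 57.3 to 16.5, 16 and 16.8 FPKM (log2 change -1.72, SE 0.033, adjusted p = 3.61e-15). SRF, the factor that binds the CArG box of FOS and EGR1, fell from 35.1, 35.2 and 34.3 to 13.8, 14.7 and 14.7 FPKM (log2 change -1.22). FOSL2, at -0.41, was above 0 after quantile normalization, median centring and length correction (0.066, 0.014 and 0.18).

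The ERK feedback list holds phosphatases and inhibitors that damp receptor tyrosine kinase signalling as well as receptors, ligands and an exchange factor that drive it. Of its 19 tested genes, 3 rose and 15 fell, beside 26.8% and 57.6% of all genes. A fall of at least 2-fold was called in 10, beside 10.7% of all genes. The median was -1.02, negative under every scaling (-1.30 to -0.60). SOS1, the exchange factor that loads RAS with GTP, was 46.9, 46.7 and 44.4 FPKM in 8HQ and 5.14, 5.09 and 6.13 in 8HQ/FAC, 8.44-fold lower (log2 change -2.87, SE 0.052, adjusted p = 2.82e-15). DUSP6, the ERK phosphatase, was 48.7, 48.6 and 47.2 FPKM in 8HQ and 8.68, 10.3 and 9.9 in 8HQ/FAC, 5.0-fold lower (log2 change -2.21, adjusted p = 1.29e-14). SPRED2, an inhibitor of RAS signalling, fell from 23.9 ± 0.506 to 7.54 ± 0.236 FPKM, and SPRY1, SPRY2 and SPRY4, of the Sprouty inhibitors, had log2 changes of -1.31, -1.23 and -1.30. The 3 that rose were HBEGF, DUSP1 and EGFR. DUSP1, a phosphatase of p38 and JNK that is itself an immediate early gene, rose from 14.6, 12.5 and 14.9 to 29.3, 31.9 and 28.1 FPKM (log2 change 1.04). EGFR, the receptor, was 3.2, 3.07 and 3.09 FPKM in 8HQ and 3.54, 3.93 and 4.16 in 8HQ/FAC, with a log2 change of 0.24 that was -0.0091 with equal sums.

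CYP1A1, a cytochrome P450 induced by the aryl hydrocarbon receptor, had the largest fall and was 95.7, 95.7 and 96.3 FPKM in 8HQ and 2.97, 3.08 and 3.31 in 8HQ/FAC, 30.7-fold lower in the mean (log2 change -4.56, SE 0.035, adjusted p = 1.14e-19). IGFBP1, an insulin-repressed binding protein of insulin-like growth factors that liver secretes, was 543, 535 and 530.4 FPKM in 8HQ and 63.6, 60 and 65.9 in 8HQ/FAC, 8.49-fold lower (log2 change -3.07, adjusted p = 8.11e-16). HBB, beta globin, was 35.2, 6.97 and 1.52 FPKM in the 8HQ libraries and was listed at 0 in all 3 8HQ/FAC libraries. HBB passed the filter only through 8HQ, and the 8HQ libraries themselves spread widely. It was also listed at 0 in all 3 FAC libraries, and no fold is given. C15orf39, FZD4, TGFBR2, SP5 and PTGDR2 complete the 10 largest falls with SOS1 and DUSP6.

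FZD4, a Wnt receptor, was 32.3, 34.9 and 33.6 FPKM in 8HQ and 5.96, 5.82 and 5.77 in 8HQ/FAC (log2 change -2.34), and SP5, a Wnt target, was 73.9, 79.4 and 77.8 and 14.2, 15.8 and 14.8 (log2 change -2.29). TGFBR2, the type II receptor for TGF-beta, was 74.9, 77.2 and 74.2 FPKM in 8HQ and 13.6, 14.8 and 15 in 8HQ/FAC (log2 change -2.31). C15orf39 went from 16.9, 16.8 and 15.8 to 2.11, 2.2 and 2.32 FPKM (log2 change -2.45), and PTGDR2, a prostaglandin D2 receptor, from 12.1, 11.4 and 11.9 to 1.57, 1.94 and 2.15 (log2 change -2.16). The naming rule took only genes whose groups did not overlap, as in 84.7% of all tested genes. The adjusted p-values of these 5 genes were 2.24e-13 or lower.

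Most HIF targets rose. Of 41 tested members, 30 rose, 18 of them at least 2-fold, and 8 fell, beside 26.8%, 2.14% and 57.6% of all genes, with a median log2 change of 0.67 that was 0.39 to 1.09 under the other scalings. CA9, carbonic anhydrase 9, which acidifies the cell's surroundings under hypoxia, was 1.06, 1.37 and 1.73 FPKM in 8HQ and 39.9, 34.2 and 38.6 in 8HQ/FAC, 27.2-fold higher (log2 change 4.02, SE 0.11, adjusted p = 6.57e-14). ADM, the vasodilator adrenomedullin, was 4.38, 5.96 and 5.14 FPKM in 8HQ and 51.9, 57.8 and 54.4 in 8HQ/FAC, 10.6-fold higher (log2 change 3.18, adjusted p = 4.91e-14). Glycolytic enzymes of the list rose together. ALDOA, ENO1 and GAPDH rose from means of 321 ± 3.17, 503 ± 14 and 1295 ± 30.8 FPKM to 758 ± 7.92, 1088 ± 18.5 and 2467 ± 52.5, and PGK1, TPI1 and PKM had log2 changes of 1.18, 1.09 and 1.05.

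NDRG1, a stress gene induced by hypoxia and by iron chelation, rose from 9.87, 11 and 10.9 to 28.5, 28.4 and 26.6 FPKM (log2 change 1.32, SE 0.048, adjusted p = 1.14e-12). The mitophagy receptors BNIP3 and BNIP3L had log2 changes of 1.26 and 1.13. The 8 that fell include regulators of the pathway itself. HIF1A, EPAS1 (HIF-2 alpha), VHL, which marks HIF for degradation, and the prolyl hydroxylase EGLN1 had log2 changes of -0.69, -0.56, -0.76 and -1.01, whereas EGLN3, a hydroxylase that HIF induces, had 1.05.

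**Figure D4:**
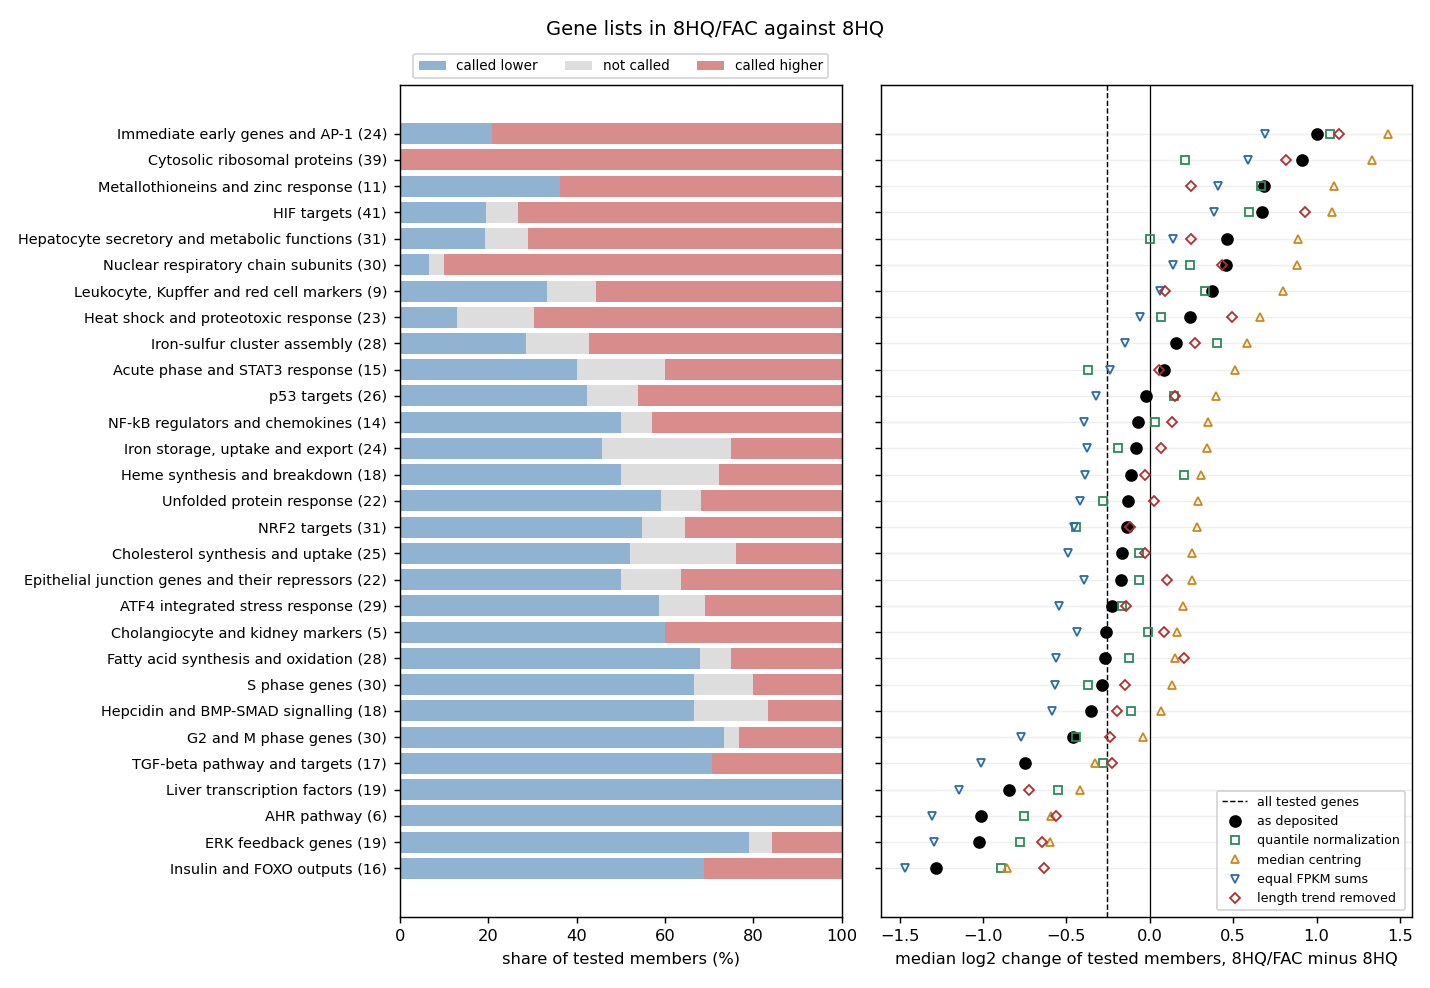
Left, share of the tested members of 29 gene lists (number tested in brackets) called lower, not called or called higher in 8HQ/FAC. Right, median log2 change of each list as deposited and under 4 other scalings, with the dashed line at the median of all tested genes; immediate early genes at 1.0 and ribosomal proteins at 0.91 lie at the top, and insulin and FOXO outputs at -1.28 lie lowest.

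NRF2 targets, which counter oxidative stress, were called higher and lower at shares near those of all genes. Of 31 tested, 11 rose and 17 fell, or 35.5% and 54.8% beside 26.8% and 57.6%, and the median was -0.14, or 0.28 after median centring. NFE2L2, which encodes NRF2, fell from 95.4, 97 and 94.1 to 38.9, 42.6 and 43.9 FPKM, and KEAP1, its inhibitor, from 37.4, 36.8 and 39.6 to 14.8, 14.8 and 16.1 FPKM (log2 changes -1.17 and -1.26). NQO1 and GCLM, which are standard NRF2 targets, had log2 changes of -0.12 and -0.051, the second not called; both were above 0 after median centring (0.31 and 0.37) and length correction (0.07 and 0.37), and GCLM after quantile normalization (0.24). Of 23 heat shock genes, 16 rose and 3 fell, or 69.6% and 13% beside 26.8% and 57.6%, with a median of 0.24 that was -0.06 with equal sums. HSPA1A and HSPA1B, near-identical copies of the inducible HSP70 whose reads cannot be safely divided, went from 14.4 ± 0.288 and 24.7 ± 1.29 to 84.7 ± 0.495 and 154 ± 5.15 FPKM. BAG3, the HSP70 co-chaperone, rose from 18.9, 17.8 and 20.1 to 54.7, 62 and 55.9 FPKM (log2 change 1.55, adjusted p = 7.14e-13), and DNAJB1, an HSP40, fell from 43.2 ± 0.747 to 25.7 ± 0.899 FPKM.

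The shares of ATF4 and unfolded protein response genes called lower, 58.6% and 59.1%, lay near the 57.6% of all genes. Of 29 ATF4-related genes, 9 rose and 17 fell (median -0.23, or 0.20 after median centring), and of 22 genes of the unfolded protein response, 7 rose and 13 fell (median -0.13, or 0.29 after median centring and 0.02 after length correction). TRIB3, a pseudokinase induced by ATF4, fell from 50.1, 47.8 and 52.2 to 18.5, 20.7 and 22.1 FPKM (log2 change -1.25), and SLC7A1, an arginine transporter, from 33.5, 33.6 and 33.5 to 10.1, 10.4 and 11.4 (log2 change -1.57). XBP1, a transcription factor of the unfolded protein response, fell from 178, 182 and 176 to 74.9, 72 and 77.5 FPKM (log2 change -1.25, adjusted p = 3.13e-14), and SEL1L and SYVN1, which degrade misfolded proteins, had log2 changes of -1.09 and -1.41. PDIA6, a disulfide isomerase, rose from 209.8 ± 3.67 to 301 ± 5.57 FPKM.

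Of 26 p53 targets, 12 rose and 11 fell, or 46.2% and 42.3% beside 26.8% and 57.6% of all genes. None fell at least 2-fold, beside 10.7% of all genes, and 5 rose that far, beside 2.14%. Besides GADD45B and PLK2, these were CDKN1A, the cell cycle inhibitor p21, which rose from 83, 76.1 and 80.1 to 313, 356 and 348 FPKM (log2 change 2.07, adjusted p = 1.29e-14); GADD45A, which rose from 37.4, 37.9 and 41.9 to 138, 152 and 148 FPKM (log2 change 1.87); and PMAIP1, a death-promoting BH3 protein, with a log2 change of 2.08. MDM2, the p53 ubiquitin ligase and a standard p53 target, had a log2 change of -0.82, which was -0.061 and not called after length correction. The median of -0.02 was -0.32 to 0.40 under the other scalings. Of 14 NF-kB regulators and chemokines, 6 rose and 7 fell, or 42.9% and 50% (median -0.07, and -0.39 to 0.35 otherwise). Without TNF, which passed the filter only through 8HQ/FAC, 5 of 13 rose and 7 fell. CXCL2, a neutrophil chemokine, rose from 2.4, 1.68 and 1.9 to 10.2, 10.8 and 12 FPKM, IL32 from 84.3, 85.4 and 83.4 to 231, 233 and 219.5, and NFKBIA, the inhibitor that NF-kB induces, from 119.9, 118 and 126 to 292, 301 and 285. NFKB1, which encodes the p105 precursor, fell from 16.7 ± 0.174 to 10.5 ± 0.519 FPKM.

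Transcription factors of the liver fell as a group. All 19 tested were lower, 7 of them at least 2-fold, beside 57.6% and 10.7% of all genes, and the median was -0.84, negative under every scaling (-1.15 to -0.42). After quantile normalization, median centring and length correction, 16, 16 and 15 of the 19 were still called lower. HNF4A, which maintains hepatocyte identity, was 84.3, 84.9 and 84.9 FPKM in 8HQ and 30.1, 28.8 and 29.5 in 8HQ/FAC, 2.88-fold lower (log2 change -1.49, SE 0.029, adjusted p = 4.00e-15). FOXA3, a pioneer factor, fell from 17, 17.2 and 16.4 to 3.53, 3.83 and 4.41 FPKM (log2 change -1.86), PROX1, a homeobox factor, from 15.8, 15.9 and 14.7 to 4.63, 4.7 and 4.96 (log2 change -1.52), and NR0B2, the bile acid-induced repressor SHP, from 42, 43.9 and 44.9 to 14.2, 13.1 and 12.7 (log2 change -1.64). Without 8HQ, HNF4A was 78.5, 78.8 and 81.3 FPKM in DMSO and 89, 86.8 and 84.2 in FAC, and FOXA3 was 18.6, 19.3 and 18.2 and 17.1, 14.9 and 17.5.

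The secreted products of hepatocytes were mostly higher in FPKM. Of 31 tested secretory and metabolic genes, 22 rose and 6 fell, or 71% and 19.4% beside 26.8% and 57.6% of all genes, with a median of 0.46 that was 0.00 after quantile normalization, where 12 rose and 13 fell. AFP, the fetal albumin homologue made by hepatoma cells, was 2113, 2137 and 2065 FPKM in 8HQ and 4547, 4517 and 4461 in 8HQ/FAC (log2 change 1.10, and 0.29 after quantile normalization). ALB, albumin, was 4337, 4276 and 4325 and 7387, 7058 and 7134 FPKM (log2 change 0.74, and 0.15). SERPINA1, the protease inhibitor alpha-1 antitrypsin, was 2172, 2173 and 2197 and 3669.9, 3585 and 3585 FPKM, with a log2 change of 0.73 as deposited and -0.26 after quantile normalization. Apart from TF and AFP, the third member at least 2-fold higher was PCK1, the gluconeogenic enzyme, which went from 2.36, 2.39 and 2.37 to 6.73, 6.3 and 7.03 FPKM (log2 change 1.19). APOB, G6PC1 and CYP2E1, which encode a lipoprotein, the glucose-releasing phosphatase and a P450, had log2 changes of -1.09, -1.02 and -1.55. Of 15 acute phase genes, 6 rose and 6 fell, or 40% each (median 0.09, or -0.37 after quantile normalization and -0.24 with equal sums). SOCS3, the feedback inhibitor of STAT3, went from 0.311, 0.331 and 0.225 to 2.54, 2.5 and 2.33 FPKM (log2 change 1.42), passing the filter only through 8HQ/FAC. Without it, 5 of 14 rose and 6 fell. FGB, fibrinogen beta, had a log2 change of 0.73 and CEBPD, an acute phase transcription factor, -0.64.

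Insulin and FOXO outputs had the lowest median of the lists with at least 3 tested members, except after length correction, where liver transcription factors and ERK feedback genes lay lower. Of 16 genes, 11 fell and 5 rose, or 68.8% and 31.2% beside 57.6% and 26.8% of all genes. A fall of at least 2-fold was called in 10, beside 10.7% of all genes. The median was -1.28 (-1.47 to -0.64 under the other scalings). Under each of those scalings 11 were called lower. IRS1, the insulin receptor adaptor, fell from 6.5, 7.49 and 6.75 to 1.62, 1.35 and 1.62 FPKM (log2 change -1.64, SE 0.058, adjusted p = 8.47e-13). DEPP1, a FOXO target, fell from 43.6, 43 and 44.8 to 8.88, 9.38 and 10.9 FPKM (log2 change -2.07), and the receptors INSR and IGF1R and the factors FOXO1 and FOXO3 had log2 changes of -1.28, -1.31, -1.31 and -1.30. The 5 that rose were IGFBP2, PCK1, TXNIP, IGFBP3 and FOXO4. IGFBP2, another binding protein of insulin-like growth factors, rose from 4.07, 4.08 and 4.99 to 15.4, 16.1 and 14.2 FPKM, and TXNIP, which restrains glucose uptake, from 15.5, 15.1 and 14.8 to 33.9, 36.3 and 34.7 FPKM. IGFBP3 and FOXO4 had log2 changes of 0.63 and 0.33, and FOXO4 was not called with equal sums.

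Of 17 genes of the TGF-beta pathway, 12 fell and 5 rose, or 70.6% and 29.4% beside 57.6% and 26.8% of all genes, and the median was -0.75 (-1.01 to -0.23 otherwise). With TGFBR2, the co-receptor TGFBR3 fell from 36.5 ± 1.79 to 18.7 ± 0.347 FPKM and the type I receptor TGFBR1 by 1.19 on the log2 scale. TGFBI, a matrix protein, rose from 170.3 ± 2.9 to 271 ± 2.12 FPKM. INHBB and TGFB1, ligands of the family, had small log2 changes of 0.22 and 0.12 (adjusted p = 0.011 and 0.0353), and with equal sums TGFB1 was -0.20 and INHBB was not called. Without 8HQ replicate 3 the adjusted p of INHBB was 0.0599, and without 8HQ replicate 1, 8HQ/FAC replicate 1 or 8HQ/FAC replicate 3 that of TGFB1 was 0.184, 0.141 and 0.0714.

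CDH1, which encodes E-cadherin and is the best known target of SNAI1, was not called (log2 change -0.13, adjusted p = 0.0687); it was called at 0.33, 0.29 and 0.29 after quantile normalization, median centring and length correction and at -0.40 with equal sums. Of 22 epithelial junction genes and their repressors, 8 rose and 11 fell, or 36.4% and 50% beside 26.8% and 57.6% of all genes, with a median of -0.17 that was 0.25 after median centring and 0.10 after length correction. EPCAM, an epithelial adhesion molecule, rose from 79.2, 82.6 and 79.3 to 165, 161 and 158 FPKM and KRT19, a keratin, from 71.2, 72.5 and 71.7 to 146, 151 and 136. TJP1, the tight junction scaffold ZO-1, fell from 15, 15.7 and 14.4 to 4.94, 5.03 and 5.1 FPKM (log2 change -1.41). SOX9, a transcription factor of biliary and progenitor cells, fell from 61.1, 62.4 and 60.4 to 16.2, 15.2 and 16.5 FPKM (log2 change -1.88), and SPP1, osteopontin, from 789, 769.9 and 793 to 531, 520.2 and 545. Of 6 tested genes of the AHR pathway all were lower, beside 57.6% of all genes (median -1.01). Besides CYP1A1 they include the receptor AHR, which fell from 16.1, 15.6 and 15.1 to 5.65, 5.88 and 5.72 FPKM, and its partner ARNT, which fell from 8.13, 8.84 and 8.63 to 4.07, 4.14 and 4.61 FPKM; under the other scalings 4 to 6 of the 6 were called lower.

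Short, abundant housekeeping transcripts were higher. All 39 cytosolic ribosomal protein genes rose, beside 26.8% of all genes, and 10 of them rose at least 2-fold, beside 2.14%. Their median of 0.91 was 0.21 after quantile normalization, where 38 rose and 1 fell. RPL14 was 495, 485 and 502 FPKM in 8HQ and 1057, 1033 and 1007 in 8HQ/FAC (log2 change 1.06). Of 30 nuclear-encoded respiratory chain subunits, 27 rose and 2 fell, or 90% and 6.7%, with a median of 0.46 that stayed positive at 0.14 to 0.88. NDUFB3 and COX5B, subunits of complexes I and IV, rose from 16.9 ± 1.02 and 204 ± 2.08 to 36.4 ± 0.229 and 396 ± 22 FPKM. The 2 that were lower, NDUFS1 and SDHA, had log2 changes of -0.10 and -0.13 and were above 0 after median centring (0.33 and 0.29) and length correction (0.65 and 0.072); without 8HQ/FAC replicate 3 the adjusted p of NDUFS1 was 0.0912. Of 28 iron-sulfur cluster assembly genes, 16 rose and 8 fell, or 57.1% and 28.6%, with a median of 0.16 that was -0.15 with equal sums. BOLA3 and CIAO2A, of mitochondrial and cytosolic assembly, rose from 56.8 ± 2.67 and 10.1 ± 0.22 to 121 ± 0.771 and 18.2 ± 0.336 FPKM, and IBA57, of the late mitochondrial step, fell from 3.41 ± 0.153 to 1.31 ± 0.0742.

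Of 25 cholesterol genes, 6 rose and 13 fell, or 24% and 52% beside 26.8% and 57.6% of all genes, with a median of -0.17 that was 0.26 after median centring. SQLE, squalene epoxidase, fell from 37.2, 38.5 and 37.7 to 18.6, 19.2 and 21 FPKM (log2 change -0.91, adjusted p = 7.80e-12), and LSS, lanosterol synthase, had a log2 change of -1.0. Of 28 fatty acid genes, 7 rose and 19 fell, or 25% and 67.9%, with a median of -0.27 that was 0.15 after median centring and 0.21 after length correction. GPAM, which starts glycerolipid synthesis, fell from 34.7 ± 0.717 to 14.3 ± 0.352 FPKM, and CPT1A, the gatekeeper of mitochondrial fatty acid oxidation, from 15.1 ± 0.697 to 5.9 ± 0.146. Of 30 S phase genes, 6 rose and 20 fell, or 20% and 66.7% (median -0.29, or 0.14 after median centring). Among 30 genes of G2 and M phase, 7 rose and 22 fell, or 23.3% and 73.3% (median -0.46, -0.77 to -0.04 otherwise). In 8 of the 22 the fall was at least 2-fold, beside 10.7% of all genes. MKI67, the proliferation marker, fell from 45.9, 48.6 and 45.1 to 13.8, 15 and 15 FPKM (log2 change -1.61, SE 0.039, adjusted p = 2.44e-14), KIF11, a spindle motor, from 29 ± 0.258 to 9.57 ± 0.648, and CHAF1A, a histone chaperone of replication, from 25.9 ± 0.0555 to 8.01 ± 0.195. PTTG1 and HMMR, also of G2 and M phase, had log2 changes of 0.84 and 0.73.

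Whether FAC acted differently with 8HQ than without it was tested as the interaction, the log2 change from 8HQ to 8HQ/FAC less that from DMSO to FAC, where the simple comparisons share no library. It was called in 8303 of the 10823 genes (76.7%), with 2533 higher (23.4%) and 5770 lower (53.3%), of which 144 (1.33%) and 804 (7.43%) reached 2-fold. Its direction split depended on the scaling too: 5025 were higher and 3043 lower after median centring, 3760 and 3533 after length correction, 3741 and 3881 after quantile normalization, and 1220 and 7489 with equal sums. FAC without 8HQ changed 5848 genes (54.0%), 2689 higher (24.8%) and 3159 lower (29.2%), with 36 (0.333%) and 70 (0.647%) at least 2-fold, against 232 and 1162 with 8HQ. 8HQ against DMSO, without FAC, gave 531 calls (4.91%), 270 higher (2.49%) and 261 lower (2.41%), of which 3 (0.0277%) were at least 2-fold higher.

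For HAMP the interaction was 3.68 (SE 0.18, adjusted p = 1.70e-10), since its level rose with 8HQ and fell without it. For TFRC it was 1.73 (adjusted p = 1.04e-12): FAC lowered TFRC by 2.20 on the log2 scale without 8HQ and gave -0.48 with it, leaving 47.2 ± 0.537 FPKM in 8HQ/FAC against 13.4 ± 0.736 in FAC. ID1 had 35.9 FPKM in 8HQ/FAC, 10.9 in FAC and 42.4 in DMSO, and an interaction of 1.69 (adjusted p = 1.61e-12). The interaction was not called for SLC40A1 or NDRG1. For SLC40A1 the log2 changes were -0.96 and -1.07 and the interaction was 0.11 (SE 0.069, adjusted p = 0.163), or -0.16 with equal sums, but it was called at 0.35, 0.48 and 0.36 after quantile normalization, median centring and length correction. For NDRG1 they were 1.32 and 1.42, with an interaction of -0.10 (SE 0.068, adjusted p = 0.168). That of NDRG1 was called at -0.15 without 8HQ replicate 1 (adjusted p = 0.0446), at 0.27 after median centring, at 0.20 after length correction and at -0.38 with equal sums. A p above the threshold does not show that the effects were equal. HMOX1 rose in both settings, by 2.39 with 8HQ and 1.24 without it (interaction 1.15, adjusted p = 1.06e-09).

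**Figure D5:**
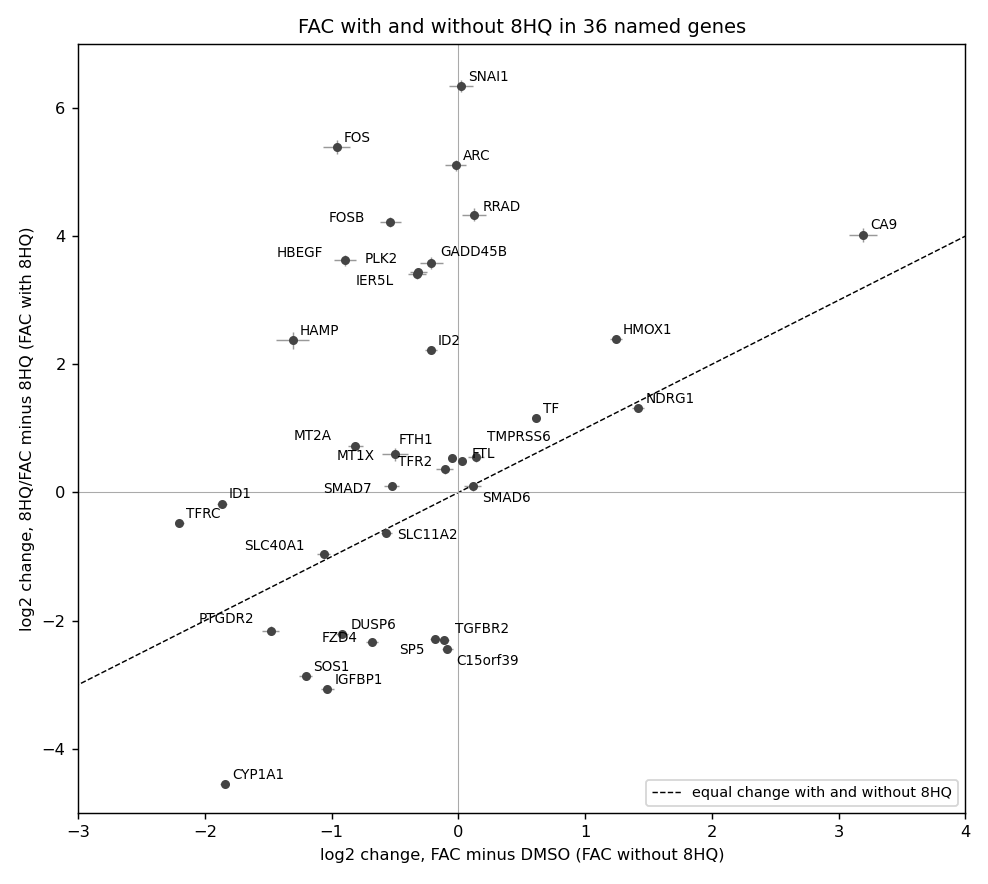
Log2 change from 8HQ to 8HQ/FAC (vertical axis) against that from DMSO to FAC (horizontal axis) for 36 named genes, with 1 point and its SE per gene and the dashed line at equal change. SLC40A1 and NDRG1 lie near the line; HAMP, FOS and HBEGF lie in the upper left, higher with 8HQ and lower without it.

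Some lists moved differently in these comparisons and others moved alike. List counts are read beside 24.8% of all genes higher and 29.2% lower with FAC alone. These shares were 26.8% and 57.6% for FAC with 8HQ, and 23.4% and 53.3% for the interaction. Of the 24 immediate early genes, FAC without 8HQ raised none and lowered 21 (median -0.83), whereas with 8HQ it raised 19; the interaction was called higher in 20 and lower in 4. FOS was 0.705, 0.547 and 1.31 FPKM in FAC and 2.52, 2.92 and 2.25 in DMSO, and its interaction of 6.35 (SE 0.15) was the highest of the tested genes that met the naming rule, followed by SNAI1, ARC and FOSB. EGR1 fell by 2.95 on the log2 scale without 8HQ. HIF targets mostly rose in either setting: FAC without 8HQ raised 31 of 41 and lowered 6, and CA9 was 20.9, 19.4 and 19.5 FPKM in FAC. ERK feedback genes mostly fell in either setting, 17 of 19 without 8HQ and 15 with it. G2 and M phase genes did not: FAC without 8HQ raised 16 of 30 and lowered 3, and the interaction was called lower in 23, or in 17 to 28 under the other scalings. Cholesterol genes were higher in 18 of 25 and lower in 4 without 8HQ. With 8HQ, 6 were higher and 13 lower, the latter 52% beside 57.6% of all genes. After median centring, 14 were higher and 6 lower with 8HQ. The interaction of cholesterol genes was called lower in 20, or in 12 to 22. Among liver transcription factors, FAC without 8HQ raised 7 and lowered 10 of 19 (median -0.15), and the interaction was called lower in 17 and higher in 1, or lower in 15 to 18. At the other end, the interaction was lowest for CYP1A1, C15orf39, TGFBR2 and SP5, at -2.71, -2.36, -2.19 and -2.11. C15orf39, TGFBR2 and SP5 had log2 changes of -0.087, -0.11 and -0.18 with FAC alone.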

How the data were processed

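RNA levels were measured by sequencing in 12 HepG2 libraries, 3 in each of 4 groups. The authors deposited FPKM values, reads or fragments per kilobase of gene model, scaled by the mapped total, in 1 table of 20030 genes. The submitters' processing notes name Bowtie 0.12.2 and the builds mm8 and mm9. Those are mouse builds, which cannot underlie a human gene table. The counting tool, its strand setting and the human annotation were not given in the sources used here. Symbols that a spreadsheet had turned into dates, 27 in all, were restored through their gene identifiers, and 19741 genes matched RefSeq.

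The filter on low values was 1 FPKM in 3 or more libraries. Values were taken as log2(FPKM + 1), so fold changes on this scale understate those of low genes, while folds of means use the FPKM themselves. Limma 3.58.1 in R 4.3.3 fitted 1 mean per group to all 12 libraries with an intensity trend. Calls were made at a two-sided Benjamini-Hochberg adjusted p under 0.05 over all 10823 genes, separately for each contrast. Fits were tested on simulated data. No set test was run; lists are described by counts and medians beside those of all genes.

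The depth was estimated from low values: 98.1% of 12561 values under 0.3 FPKM lay within 0.05 of a whole multiple of a gene's step, but the steps were set from the values themselves. With annotated lengths this placed 8HQ replicate 1 near 19200000 reads or fragments, with quartiles of 17600000 and 25700000 over genes. No counting intervals were computed, for lack of mapped totals. No libraries were identical.

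The comparison, the 30 gene lists, the panel of 20 genes and the naming rule were chosen with earlier results of these data known. The rule names the panel, of which BMP6 and HJV could not be tested. It names the 10 largest rises and 10 largest falls among called genes that reached 1 FPKM in the higher group and whose groups did not overlap. It also names the 4 highest and 4 lowest interactions, up to 4 members of each list with the smallest adjusted p, every member of a count of 5 or fewer, and the 3 most abundant genes of each group. Other list members were named after their values were seen, and some genes that the rule names are not reported here. Promoters came from RefSeq GRCh38.p14, which held 128 of the 164 named genes. Transcript length is that of the longest annotated transcript.

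The alternatives were 4 other scalings, a pseudocount of 0.1, no filter, a filter at 5 FPKM, limma without the trend, only the compared groups in the model, a replicate block, and dropping each library singly. Quantile normalization and median centring act on the log values of tested genes, equal sums on the FPKM of all listed genes, and the length correction removes a trend from each library. Figures used matplotlib 3.10.9, and tables used pandas 2.3.3 under Python 3.11.15.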

Additional observations from a re-analysis of the deposited data

Results flagged for a closer look

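For 32 of the named genes, the effect of FAC with 8HQ differed from its effect without 8HQ in the test of that difference, an interaction on the log2 scale (limma, adjusted p under 0.05, as in 76.7% of all genes). Among the genes that rose most with 8HQ, it was 6.35 for FOS, 6.32 for SNAI1, 5.13 for ARC, 4.76 for FOSB, 4.52 for HBEGF, 4.22 for RRAD, 3.80 for GADD45B, 3.76 for PLK2, 3.73 for IER5L and 0.83 for CA9. RRAD was 1.4, 1.38 and 0.935 FPKM in FAC and 0.965, 1.01 and 1.18 in DMSO.

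Among hepcidin and BMP genes the difference was 3.68 for HAMP, 2.44 for ID2, 1.69 for ID1, 0.64 for SMAD7 and 0.41 for TMPRSS6. Among iron, heme and metal genes it was 1.73 for TFRC, 1.15 for HMOX1, 1.54 for MT2A, 1.10 for MT1X, 0.58 for FTH1, 0.46 for FTL, 0.54 for TF and 0.47 for TFR2. The differences of FTH1, FTL and TF turned to -0.16, -0.27 and -0.065 after quantile normalization. MT2A fell without 8HQ, from 127 ± 5.24 to 71.7 ± 2.82 FPKM (log2 change -0.81), and rose with it.

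Among the genes that fell most with 8HQ the difference was -2.71 for CYP1A1, -2.36 for C15orf39, -2.19 for TGFBR2, -2.11 for SP5, -2.03 for IGFBP1, -1.66 for SOS1, -1.65 for FZD4, -1.29 for DUSP6 and -0.68 for PTGDR2. All 9 had a lower mean in FAC than in DMSO as well, with the smallest gap in C15orf39 (log2 change -0.087, adjusted p = 0.125).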

How the results depend on the processing

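The number of genes called was 8907 to 8976 when each library was left out in turn, 2791 to 2836 higher and 6103 to 6152 lower, with 218 to 241 and 1091 to 1225 at least 2-fold; the interaction gave 8097 to 8218, 2441 to 2511, 5655 to 5733, 140 to 152 and 762 to 867. The filter moved the total most, to 6831 at 5 FPKM and 10434 with none, and the scalings gave 8663 to 9483. The split by direction moved most with the scaling. Called higher were 4405 genes after quantile normalization, 5700 after median centring, 1462 with equal sums and 4387 after length correction, and 3445 were called lower after median centring. At least 2-fold higher were 361, 937 and 116 after quantile normalization, median centring and equal sums. At least 2-fold lower were 340, 223, 2278 and 325 under the 4 scalings in that order and 1919 at a pseudocount of 0.1. For the interaction, 5025 were higher after median centring and 1220 with equal sums, and 3043 and 3533 were lower after median centring and length correction. At least 2-fold there were 250 and 592 higher after quantile normalization and median centring, and 245, 171, 1743 and 234 lower under the 4 scalings and 1570 at the smaller pseudocount. The cause was not tested.

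Log2 changes that turned sign after quantile normalization were CCN2 at -0.25, FOSL2 at 0.066, FTH1 at -0.29, FTL at -0.15, HSP90AB1 at -0.0084, HSPA4L at 0.28, MTF1 at 0.13, SERPINA1 at -0.26 and SLC30A10 at 0.011. After median centring they were FOSL2 at 0.014, HSPA4L at 0.23, ID1 at 0.24, MTF1 at 0.17, NDUFS1 at 0.33, PAX8 at 0.16, SDHA at 0.29, SLC30A1 at 0.069 and SLC39A10 at 0.046. With equal sums they were CCN2 at -0.16, EGFR at -0.0091, SMAD6 at -0.093, SMAD7 at -0.17 and TGFB1 at -0.20. After length correction they were APOA2 at -0.0043, BLVRA at -0.033, FOSL2 at 0.18, FTL at -0.0096, HSPA4L at 0.53, MTF1 at 0.39, NDUFS1 at 0.65, PAX8 at 0.087, SDHA at 0.072, SLC30A1 at 0.13 and SLC39A10 at 0.10. Interactions that turned sign were FTH1 at -0.16, FTL at -0.27, SLC11A2 at 0.31, SMAD6 at 0.29 and TF at -0.065 after quantile normalization, NDRG1 at 0.27, SLC11A2 at 0.31 and SMAD6 at 0.36 after median centring, SLC40A1 at -0.16 with equal sums, and NDRG1 at 0.20, SLC11A2 at 0.27 and SMAD6 at 0.41 after length correction. That of SMAD6 ranged from -0.072 to 0.049 when each library was left out, and was above 0 without DMSO replicate 1, 8HQ replicate 1, FAC replicate 2 or 8HQ/FAC replicate 1.

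Of the 164 named genes, 148, 151, 149 and 145 kept direction and side of the threshold under the 4 scalings in the order above. HBA1, which passed the filter only through 8HQ/FAC, was lost without 8HQ replicate 2, 8HQ replicate 3 or 8HQ/FAC replicate 3. PAX8 was lost without 8HQ/FAC replicate 2. The replicate block gave 9117 called genes, 2890 higher and 6227 lower, and changed no named call; the replicate numbers were not taken as pairs, since deviations of same-numbered libraries correlated at 0.03, 0.01 and -0.04. FPKM near 1 rest on few reads in short genes, and the depth of these libraries limits what can be called there. Without mapped totals, counting error is not separated from the spread between libraries.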

Other observations

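Some genes were listed at 0 throughout one of the compared groups, markers of blood cells among them. Across the whole table, 149 genes were above 0 in all 3 8HQ libraries and listed at 0 in all 3 8HQ/FAC libraries, of which 2 passed the filter on low values, and 177 were the reverse, of which 5 passed. HLA-DRA, of antigen presentation, was 1.02, 1.87 and 0.874 FPKM in 8HQ and was listed at 0 in all 8HQ/FAC and all FAC libraries. Like HBB, HLA-DRA would not have passed the filter without the 8HQ libraries, and it also needed DMSO replicate 3, at 1.65 FPKM. S100A9, a neutrophil protein, was 2.06, 2.31 and 0.678 FPKM in 8HQ and 0, 0.342 and 0.109 in 8HQ/FAC. HBA1, alpha globin, was 1.22, 0.263 and 0.277 FPKM in 8HQ and 0.901, 1.08 and 3.2 in 8HQ/FAC, where HBB was listed at 0. CD68 and CD74 rose from 33.5 ± 1.3 and 86 ± 0.719 to 43.7 ± 2.17 and 135 ± 2.48 FPKM. ACTA2 and PDGFRB, of smooth muscle and stromal cells, rose from 33.9 ± 0.692 and 1.26 ± 0.19 to 50.6 ± 1.72 and 1.78 ± 0.123 FPKM.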
